A study of Mus musculus with 9 samples.

Results

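A set of 9 genes used as readouts of repair-type gut epithelium and of the transcriptional coactivator YAP were followed over the large intestine arrays of mice with lowered DHX9. The genes were Plet1, Ly6a, Clu, Sprr1a, Ly6g6c, Il1rn, Ccn1 (also called Cyr61), Ccn2 (Ctgf) and Ankrd1. They were found as the rows of the expression table whose Entrez Gene number belongs to these symbols, and all 9 of them had a row, out of 24570 genes with a named row. All 9 passed the filter on low levels that left 17199 genes to be tested. The symbols were chosen by name with the log2 differences between these hairpin and control arrays already known, so they count as selected on those values. Their differences from control are therefore given as a description without a test, and tests are given for other genes of the same pathways. The lists of those other genes were drawn from textbook knowledge, but also with earlier results of these data known.

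The 3 groups were C57BL/6 mice that carried the doxycycline-dependent activator rtTA and a short hairpin RNA: DHX9.1271 (group DHX9-1271), DHX9.837 (group DHX9-837) or FLuc.1309, directed at firefly luciferase, a gene that mice lack (control). There were 3 arrays in each group. Mice of every group, control included, drank doxycycline at 1 mg/ml with 5% sucrose for 14 days from 4 weeks of age. The promoter that drives rtTA is not given in the sources used here. Total RNA of the large intestine was measured, so epithelium, muscle, stroma, vessels and blood cells all contribute, and fewer cells of a type cannot be told apart from less RNA per cell.

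In the Hippo pathway a chain of kinases holds YAP and its relative TAZ in the cytoplasm. When the kinases are inactive, YAP and TAZ enter the nucleus and act through TEAD transcription factors, and Ccn1, Ccn2 and Ankrd1 are among the genes most used to read that activity. In mouse gut, injury is followed by a regenerative state of the epithelium in which Ly6a (Sca-1), Clu, annexins and some genes of stratified epithelium are switched on, and YAP has been linked to this state. Ccn1 and Ccn2 also respond quickly to growth factors, serum response factor and TGF-beta, and stromal and vascular cells make them.

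Promoter sequence was available from RefSeq (GRCm38.p6) for 6 of the 9 genes, in 8 windows of 250 bases ending at the annotated start. The windows of Ccn1 and Ankrd1 are shown because both genes were lower with the hairpins and are textbook TEAD targets, and those of Sprr1a and Plet1 because these had the largest upward differences when both hairpin groups were averaged. Capitals mark GGAATG or its reverse complement CATTCC, the core bound by TEAD factors, and TGANTCA. The latter is a loose form of the AP-1 core, TGA(C/G)TCA, that allows any base at the centre. The windows are chr3:145649986-145650235 on the minus strand for Ccn1, chr19:36119845-36120094 on the minus strand for Ankrd1, chr3:92485882-92486131 on the minus strand for Sprr1a and chr9:50494275-50494524 on the plus strand for Plet1.
Ccn1: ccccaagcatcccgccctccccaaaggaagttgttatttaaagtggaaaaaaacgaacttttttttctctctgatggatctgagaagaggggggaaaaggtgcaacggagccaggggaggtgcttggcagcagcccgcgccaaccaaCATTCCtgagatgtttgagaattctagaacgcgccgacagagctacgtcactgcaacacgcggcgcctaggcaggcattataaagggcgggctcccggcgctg
Ankrd1: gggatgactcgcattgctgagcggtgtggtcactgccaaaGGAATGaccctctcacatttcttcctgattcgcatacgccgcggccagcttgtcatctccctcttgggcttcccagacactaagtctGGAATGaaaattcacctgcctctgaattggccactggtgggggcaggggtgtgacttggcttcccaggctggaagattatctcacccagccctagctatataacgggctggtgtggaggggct
Sprr1a: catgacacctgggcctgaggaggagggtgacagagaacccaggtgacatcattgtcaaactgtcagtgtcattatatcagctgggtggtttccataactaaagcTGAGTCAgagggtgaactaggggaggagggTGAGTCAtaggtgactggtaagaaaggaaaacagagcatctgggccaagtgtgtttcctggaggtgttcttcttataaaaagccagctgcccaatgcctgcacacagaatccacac
Plet1: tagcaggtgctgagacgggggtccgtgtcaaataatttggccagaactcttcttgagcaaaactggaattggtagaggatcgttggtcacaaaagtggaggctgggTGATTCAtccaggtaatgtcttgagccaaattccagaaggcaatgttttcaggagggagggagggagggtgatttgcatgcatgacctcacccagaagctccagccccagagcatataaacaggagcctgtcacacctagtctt
The Ccn1 window holds 1 GGAATG match, which begins 103 bases before the start site, and the Ankrd1 window holds 2, which begin 210 and 123 bases before it. Neither window holds TGANTCA. Sprr1a has 2 TGANTCA matches, at 146 and 116 bases before the start, and Plet1 has 1, at 144 bases. Both Sprr1a matches read TGAGTCA, while the Plet1 match reads TGATTCA and so departs from the AP-1 core at its centre. Of the 3 windows of Il1rn, 1 holds TGANTCA and another holds GGAATG, and the Ly6g6c window holds neither. Both strands were searched and the motifs do not overlap in these windows. Among all 32851 windows of the same length, 12.6% hold GGAATG on either strand and 6.75% hold TGANTCA. The CArG box, bound by serum response factor, is in 1.47% of all windows and was not found in these 8.

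Levels are log2 values normalized by the authors with RMA, so a difference of 1 is a factor of 2. The targeted gene, Dhx9, averaged 8.22 ± 0.044 in DHX9-1271 arrays and 8.20 ± 0.017 in DHX9-837 arrays, against 9.24 ± 0.072 in control arrays (SD, n = 3 arrays each). It thus stood at nearly the same level with both hairpins. Array medians lay between 6.24 and 6.28, and 2 arrays of the same group had a Pearson r of 0.979 to 0.995 over the genes tested. For 2 arrays of different groups r was 0.958 to 0.988. Whether each array stands for its own animal is not in the labels, so the spread that p-values rest on may be technical.

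Plet1 encodes a surface glycoprotein that marks epithelial progenitors and, in mouse colon, epithelium at wounds. Its log2 level was 7.42, 8.01 and 7.73 in DHX9-1271 arrays and 9.14, 8.92 and 8.75 in DHX9-837 arrays, against 7.21, 7.15 and 7.19 in control arrays. The 3 groups did not overlap, and the order was DHX9-837 highest, DHX9-1271 between and control lowest. The fitted difference from control was 0.54 with DHX9-1271 and 1.75 with DHX9-837 (SE 0.14 for each), which is a factor of 1.45 and of 3.38.

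Sprr1a encodes a small proline-rich protein of the cornified envelope, the cross-linked shell of stratified epithelium. DHX9-1271 arrays had 11.05, 11.10 and 11.11 and DHX9-837 arrays 11.68, 11.86 and 11.48, against 10.04, 10.20 and 10.11 in control arrays. Every hairpin array exceeded every control array by at least 0.85, and every DHX9-837 array exceeded every DHX9-1271 array by at least 0.37. Set against control, the log2 difference was 0.97 with DHX9-1271 and 1.56 with DHX9-837 (SE 0.088 for each).

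Il1rn encodes the secreted antagonist of the interleukin-1 receptor. It measured 6.11, 6.26 and 6.14 in DHX9-1271 arrays and 6.81, 7.18 and 6.77 in DHX9-837 arrays, against 6.05, 6.07 and 5.84 in control arrays. DHX9-837 stood apart from the rest, while the lowest DHX9-1271 array lay only 0.03 above the highest control array. Relative to control it stood at 0.18 with DHX9-1271 and 0.93 with DHX9-837 (SE 0.11 for each), and without control replicate 3 the DHX9-1271 difference was 0.103.

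Ly6a encodes Sca-1, a lipid-anchored surface protein of blood stem cells, endothelium and, after injury, mouse gut epithelium. Its level was 11.72, 11.58 and 11.72 in DHX9-1271 arrays and 11.79, 11.87 and 11.64 in DHX9-837 arrays, against 11.53, 11.05 and 11.40 in control arrays. The hairpin groups overlapped each other, and both lay above control, in DHX9-1271 by as little as 0.05. The difference from control was 0.35 with DHX9-1271 and 0.44 with DHX9-837 (SE 0.12 for each). Control replicate 2 was the lowest array, and without it the differences were 0.211 and 0.303. Ly6a has close relatives in the Ly6 family, and since the probes behind the row are not given, cross-hybridisation was not tested.

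Clu encodes clusterin, a secreted chaperone that marks stem cells which regrow mouse intestinal crypts after damage. It read 8.97, 9.53 and 9.13 in DHX9-1271 arrays and 9.32, 9.10 and 9.16 in DHX9-837 arrays, against 8.85, 8.91 and 8.78 in control arrays. Both hairpin groups lay above control and overlapped each other. Against control it differed by 0.37 with DHX9-1271 and 0.35 with DHX9-837 (SE 0.13 for each). DHX9-1271 replicate 2 was the highest array, and without it the DHX9-1271 difference was 0.203.

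Ly6g6c, a further lipid-anchored protein gene of the Ly6 family, had opposite signs with the hairpins. Levels were 11.59, 10.96 and 11.40 in DHX9-1271 arrays and 9.97, 10.47 and 9.87 in DHX9-837 arrays, against 10.50, 10.35 and 10.45 in control arrays. All DHX9-1271 arrays lay above control by at least 0.46, whereas DHX9-837 overlapped control through its replicate 2. The difference from control was 0.88 with DHX9-1271 and -0.33 with DHX9-837 (SE 0.18 for each), and the DHX9-837 value moved to -0.515 without DHX9-837 replicate 2 and to -0.216 without DHX9-837 replicate 3. Between the hairpins, DHX9-837 minus DHX9-1271, it came to -1.21, as large as the difference of Plet1 (1.21) the other way.

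Ccn1 encodes a secreted matricellular protein that binds integrins. Its level was 7.15, 7.09 and 7.04 in DHX9-1271 arrays and 7.28, 7.50 and 7.71 in DHX9-837 arrays, against 8.49, 7.68 and 8.41 in control arrays. DHX9-1271 lay wholly below both other groups, and the highest DHX9-837 array passed the lowest control array by 0.03. Its log2 difference was -1.10 with DHX9-1271, which leaves 46.6% of the control signal, and -0.70 with DHX9-837, which leaves 61.5% (SE 0.20 for each).

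Ccn2, the matricellular gene also known as connective tissue growth factor, showed 6.98, 6.93 and 6.88 in DHX9-1271 arrays and 6.82, 6.98 and 7.10 in DHX9-837 arrays, against 8.12, 7.61 and 8.25 in control arrays. The hairpin groups overlapped each other and both lay below control by 0.51 or more. The difference from control was -1.06 with DHX9-1271 and -1.03 with DHX9-837 (SE 0.15 for each), or 47.9% and 49.1% of the control signal. Control replicate 2 was low for Ccn1 (0.52 under its group mean, a deviation of -0.52) and for Ccn2 (a deviation of -0.38). Without that array the Ccn1 differences were -1.36 and -0.960 and the Ccn2 differences -1.25 and -1.22.

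Ankrd1, a nuclear cofactor gene induced in stretched or injured muscle, had 5.69, 5.77 and 5.84 in DHX9-1271 arrays and 5.88, 5.85 and 5.83 in DHX9-837 arrays, against 5.93, 6.02 and 5.96 in control arrays. Both hairpin groups lay below control, by 0.05 in the closest case, and they overlapped each other. Its log2 differences were -0.20 with DHX9-1271 and -0.12 with DHX9-837 (SE 0.052 for each). Its mean of 5.86 was not far over the level filter of 5.29, and dim probe sets understate a change.

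**Figure D1:**
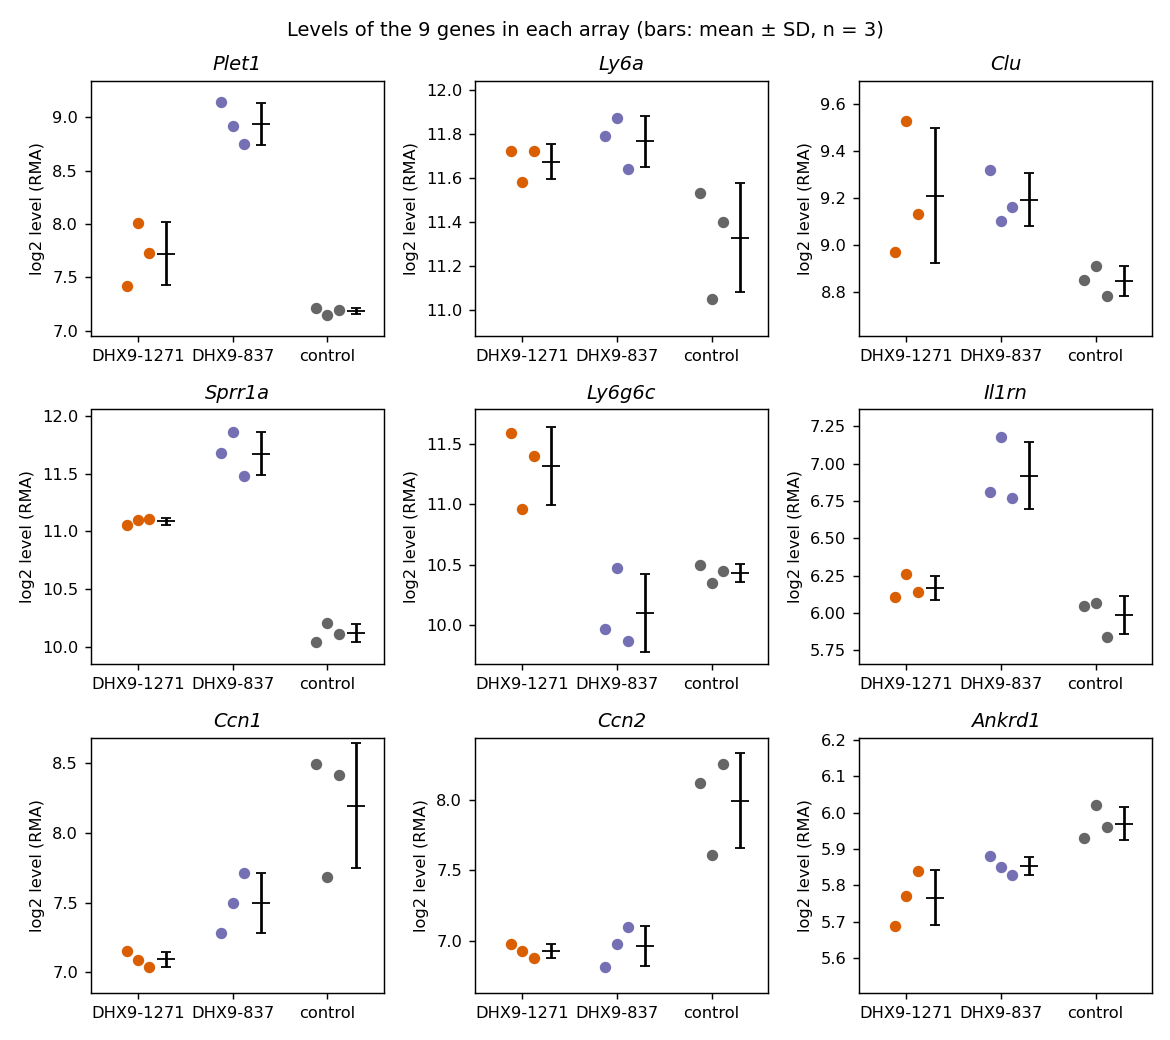
Log2 level (RMA) of each of the 9 genes in every array, with 1 panel per gene, points for the 3 arrays of DHX9-1271, DHX9-837 and control, and bars for the group mean ± SD. Plet1 and Sprr1a separate all 3 groups, Ly6g6c is high in DHX9-1271 alone, and Ccn1 and Ccn2 are low in both hairpin groups. The vertical scale differs between panels.

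Counted together, 6 of the 9 genes had every DHX9-1271 array above every control array and 3 had every one below, whereas over all genes tested 15.4% lay above and 10.1% below in this way (25.5% in either direction). With DHX9-837, 5 genes lay above, 2 below and 2 overlapped control, and the shares over all genes were 17.2% and 14.4% (31.6% in either direction). With both hairpin groups set against control, 5 lay above, 2 below and 2 overlapped, against 10.8% and 6.80% (17.5% in either direction). Nothing is read from these counts, because the genes were chosen with these comparisons known. Both comparisons use the same control arrays. DHX9-837 lay wholly above DHX9-1271 for Plet1, Sprr1a, Il1rn and Ccn1 and wholly below it for Ly6g6c, that is 4 and 1 of 9, against 9.41% and 12.6% of all genes (22.0% in either direction). By group means Ccn1, Ccn2 and Ankrd1 were lower than control with each hairpin. Plet1, Sprr1a, Il1rn, Ly6a and Clu were higher with each, while Ly6g6c had both signs. Nothing is read from these directions either, for the same reason.

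**Figure D2:**
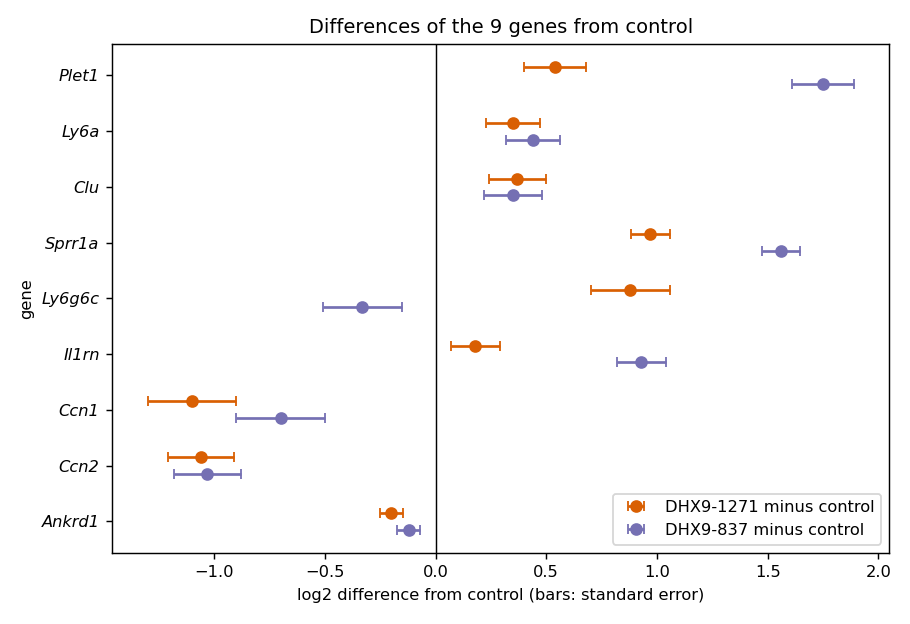
Log2 difference from control of the 9 genes for DHX9-1271 (upper point of each pair) and DHX9-837 (lower point), with bars for the standard error of the fit. Plet1 has 0.54 and 1.75, Ly6g6c has 0.88 and -0.33, and Ccn2 has -1.06 and -1.03.

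Genes whose levels ran most nearly parallel over the 9 arrays were looked up for each member by Pearson r, given without a p since the 9 arrays share 3 groups and the offsets between groups dominate. The nearest to Sprr1a were the palmitoyltransferase gene Zdhhc13 (r = 0.992), Tmem131 (r = 0.989) and the aspartate aminotransferase gene Got1 (r = 0.989). With predicted genes, clones, small RNAs and receptor segments left out, 169 genes passed 0.95. Plet1 was nearest to the chaperonin subunit gene Cct8 (r = 0.980), the epoxide hydrolase gene Ephx1 (r = 0.978) and Slc3a2, which encodes an amino acid transporter subunit (r = 0.977). Il1rn ran with Pmm1 (r = 0.976), Ttc39aos1 (r = 0.972) and Naf1 (r = 0.967). Ly6a ran with the glycolytic gene Gpi1 (r = 0.975), Ercc5 (r = 0.968) and Utp3 (r = 0.965). Clu was nearest to Dtnb (r = 0.963) and to the B cell genes Ighm (r = 0.962) and Ikzf3 (r = 0.962). For Ly6g6c they were the caveolar gene Cavin1 (r = 0.978), Ces1f (r = 0.955) and Psd3 (r = 0.938).

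The same search placed Ccn2 close to Tmbim4 (r = 0.971) and the transcription inhibitor gene Hexim1 (r = 0.968). Ccn1 was nearest to Apeh (r = 0.944), to the immediate early gene Nr4a1 (r = 0.943) and to Slc17a5 (r = 0.941). With the same kinds of genes left out, none outside the 9 passed 0.95. Ankrd1 was nearest to Ssbp1 (r = 0.932), Sypl2 (r = 0.929) and Podn (r = 0.916).

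Whether other YAP and TEAD targets were lower too was examined in a list of 22 genes, all of which were tested. In both hairpins against control, 3 rose, 2 fell and 17 were not called, by limma at an adjusted p under 0.05. Over all genes tested, 8.20% rose and 5.43% fell (13.6% in either direction). The list's median log2 difference was 0.028, and that of all genes 0.0013. Myof, which encodes the membrane repair protein myoferlin, rose by 0.48 (SE 0.074, adjusted p = 0.00434), and the TGF-beta receptor gene Tgfbr2 by 0.25 (SE 0.044, adjusted p = 0.00859). The third rise was Dock5 (0.19, adjusted p = 0.0203). Nuak2, which encodes a stress-linked kinase, had a log2 difference of -0.42 (SE 0.073, adjusted p = 0.00768), and Crim1, a BMP-binding transmembrane protein gene, one of -0.32 (SE 0.057, adjusted p = 0.00774). The feedback genes Lats2 (-0.14, adjusted p = 0.183) and Amotl2 (-0.13, adjusted p = 0.196) were not called.

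Nuak2, the target nearest to Ccn2 in direction and size, had 9.09, 8.79 and 9.07 in DHX9-1271 arrays and 8.85, 8.97 and 8.81 in DHX9-837 arrays, against 9.37, 9.30 and 9.36 in control arrays. The hairpin arrays all lay below control. Myof averaged 7.97 ± 0.026 in DHX9-1271 arrays and 8.28 ± 0.14 in DHX9-837 arrays, against 7.64 ± 0.14 in control arrays (SD, n = 3 each), with all hairpin arrays above. With DHX9-1271 alone 1 of the 22 was called, Nuak2 downward, where 2.87% of all genes rose and 1.60% fell (4.47% in either direction). With DHX9-837 alone 3 rose and 2 fell, where 8.79% and 7.03% of all genes did (15.8% in either direction). Between the hairpins 0 of the 22 were called by limma, with 3 at an unadjusted p under 0.05, where 0.698% of all genes were called higher and 1.21% lower in DHX9-837 (1.91% in either direction).

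Among 26 genes of the Hippo kinase cascade and of YAP's partners, 3 rose and 2 fell in both hairpins against control (median 0.034), where 8.20% and 5.43% of all genes did. The kinase genes Map4k4 (0.20, adjusted p = 0.0202) and Taok1 (0.21, adjusted p = 0.0225) and the protocadherin gene Fat1 (0.17, adjusted p = 0.0449) rose. The TEAD family gene Tead3 (-0.19, adjusted p = 0.0214) and Nf2, which encodes the upstream regulator merlin (-0.25, adjusted p = 0.0279), fell. These calls were fragile: leaving out control replicate 1, control replicate 3 or DHX9-1271 replicate 3 reduced the 5 calls to 1, and leaving out DHX9-1271 replicate 1 or DHX9-837 replicate 2 to 3.

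Further lists hold genes of other routes known to act on Ccn1 and Ccn2. Their calls are given for both hairpins against control, where 8.20% of all genes rose and 5.43% fell. Of 17 tested targets of serum response factor and its cofactors MRTF, only Thbs1, the thrombospondin-1 gene, was called (-0.41, SE 0.077, adjusted p = 0.00956), with a list median of 0.044, and 2 were called without control replicate 2. Of 14 TGF-beta and BMP target genes, Id2 (0.47, adjusted p = 0.00146) and Id1 (0.60, adjusted p = 0.00245), which encode inhibitors of helix-loop-helix factors, rose and the latent TGF-beta binding protein gene Ltbp3 (-0.21, adjusted p = 0.0301) fell (list median 0.040), beside 8.20% up and 5.43% down over all genes. The calls numbered 5 in place of 3 without control replicate 2, with the filter at the median gene, with cyclic loess and with trend. With DHX9-837 alone 2 of the 14 rose and 2 fell, where 8.79% and 7.03% of all genes did. The falls by limma were Smad7 (-0.29, adjusted p = 0.0157) and Skil (-0.27, adjusted p = 0.0282). Among the other genes of the CCN family, Ccn3 was called, and upward (0.46, SE 0.057, adjusted p = 0.00168), out of 3 tested (2 called without control replicate 2). Ccn3 had 6.50, 6.63 and 6.67 in DHX9-1271 arrays and 6.91, 6.96 and 6.79 in DHX9-837 arrays, against 6.34, 6.29 and 6.23 in control arrays, so that it stood on the other side of control from Ccn1 and Ccn2.

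Immediate early genes are switched on within minutes of a stimulus or of tissue handling. Of 21 tested, 6 fell and 15 were not called in both hairpins against control, where 5.43% of all genes fell, and the list median was -0.15. Jund (-0.25, adjusted p = 0.00688), Fosb (-0.44, adjusted p = 0.00695), Nr4a1 (-0.85, SE 0.15, adjusted p = 0.0079) and Klf4 (-0.27, adjusted p = 0.0117) had the smallest p. Nr4a1 had 7.08, 7.33 and 7.24 in DHX9-1271 arrays and 7.59, 7.28 and 7.86 in DHX9-837 arrays. Control arrays had 8.42, 7.90 and 8.43, and replicate 2 was low there as for Ccn1 and Ccn2. Replicate 2 was also lowest in control for Dusp1 (9.24, 8.68 and 9.19). It was the highest control array for Fos (8.69, 9.03 and 8.84) and Egr1 (6.96, 7.52 and 7.30). By limma Fos (-0.078, adjusted p = 0.7), Egr1 (-0.023, adjusted p = 0.928) and Dusp1 (-0.30, adjusted p = 0.115) were not called. The mean level of the 21 genes was 7.84 to 7.91 in DHX9-1271 arrays and 7.92 to 7.98 in DHX9-837 arrays, against 8.06 to 8.13 in control arrays, without overlap. Their part in the lower Ccn1 and Ccn2 levels was not tested.

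Of 27 other genes of repair-type epithelium 26 were tested, and in both hairpins against control 9 rose and 17 were not called, where 8.20% of all genes rose (list median 0.21). Itga2, an integrin chain for collagen, rose by 0.38 (SE 0.037, adjusted p = 0.00077), the keratin gene Krt7 by 0.43 (SE 0.060, adjusted p = 0.00278), the annexin gene Anxa3 by 0.62 (SE 0.091, adjusted p = 0.00354) and Plaur, the urokinase receptor gene, by 0.42 (SE 0.063, adjusted p = 0.0042). The largest of the 9, named after its values were seen, was Anxa1, which encodes a phospholipid-binding protein that limits inflammation (1.03, SE 0.16, adjusted p = 0.00464). Anxa1 had 8.40, 8.21 and 8.42 in DHX9-1271 arrays and 8.88, 9.30 and 8.68 in DHX9-837 arrays, against 7.24, 7.80 and 7.82 in control arrays, and no hairpin array overlapped control.

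With DHX9-1271 alone 4 of the 26 rose (median 0.097), where 2.87% of all genes did. With DHX9-837 alone 11 rose and 1 fell (median 0.26), where 8.79% and 7.03% did. The mean level of the list was 7.86 to 7.90 in DHX9-1271 arrays and 8.02 to 8.08 in DHX9-837 arrays, against 7.69 to 7.83 in control arrays, so the groups did not overlap. Between the hairpins, Itga2 (0.31, adjusted p = 0.0151) and Plaur (0.64, adjusted p = 0.00744) were called higher in DHX9-837 than in DHX9-1271, 2 of 26 where 0.698% of all genes were. Plaur had 7.46, 7.46 and 7.50 in DHX9-837 arrays and 6.93, 6.85 and 6.74 in DHX9-1271 arrays, which overlapped the control arrays at 6.86, 6.75 and 6.61. Spp1, the osteopontin gene, was not called (0.032, adjusted p = 0.795). Krt20, a keratin of surface colonocytes picked after its values were seen, had a difference of -0.0025 (SE 0.037, adjusted p = 0.975).

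**Figure D3:**
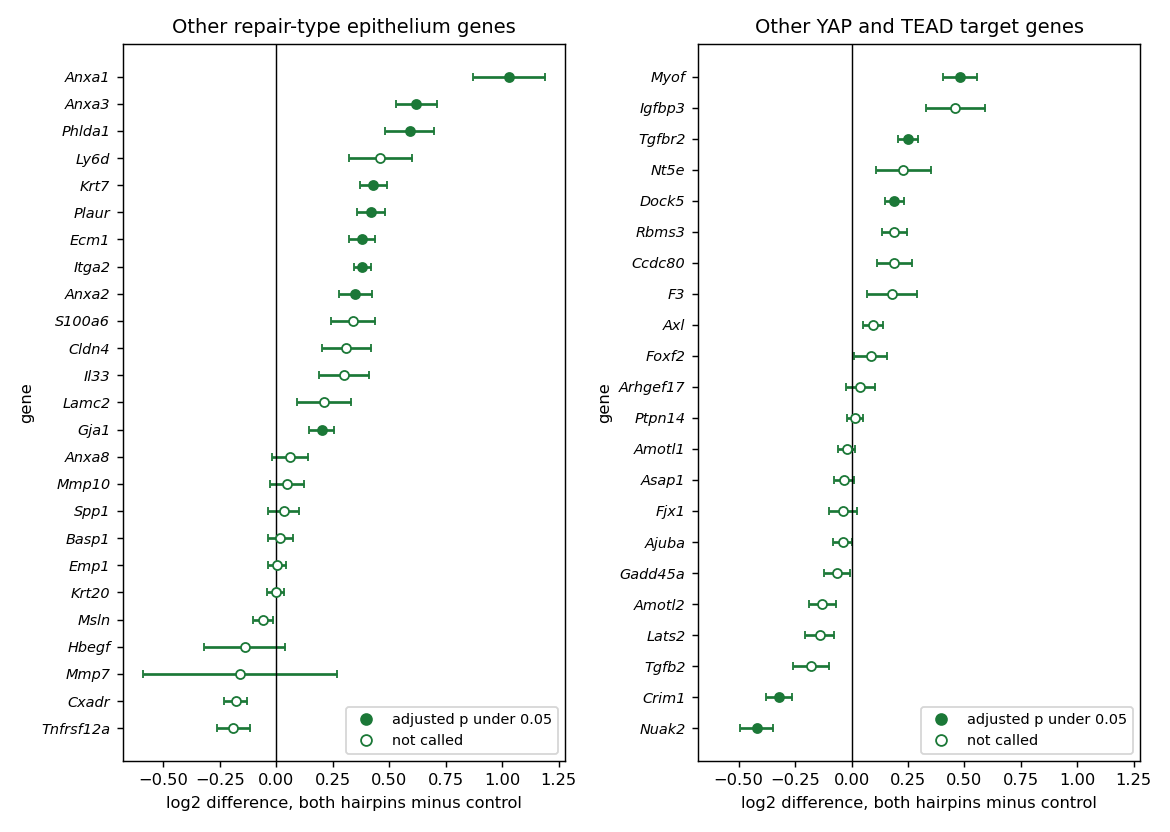
Log2 difference between both hairpin groups and control for 25 of the 26 other repair-type epithelium genes (left) and 22 other YAP and TEAD target genes (right), with bars for the standard error and filled points for an adjusted p under 0.05. On the left 9 filled points lie above 0, with Anxa1 at 1.03, and on the right 3 lie above 0 and 2 below.

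Relatives of single members were read by family. In both hairpins against control 8.20% of all genes rose and 5.43% fell (13.6% in either direction). Of 20 tested Ly6 family genes besides Ly6a and Ly6g6c, Ly6e (0.26, SE 0.042, adjusted p = 0.0054) and Ly6c2 (0.61, SE 0.17, adjusted p = 0.0455) rose and 18 were not called (list median -0.061). The Ly6c2 call ended when any 1 of 8 arrays was left out, and it has a near-identical copy in Ly6c1, which was under the level filter. Besides Sprr1a, 6 genes of the small proline-rich family and the cornified envelope passed the level filter. By limma 0 of them were called in both hairpins against control, 0 had an unadjusted p under 0.05, and the median was -0.11 (1 was called without control replicate 1). Sprr2a3 had a difference of -0.26 (adjusted p = 0.227) and Sprr2b one of -0.15 (adjusted p = 0.181), and their near-identical copies make single values uncertain. In the interleukin-1 family the receptor gene Il1r1 rose (0.34, SE 0.047, adjusted p = 0.00267), and the cytokine gene Il18 (-0.78, SE 0.16, adjusted p = 0.014) and Casp1, which encodes the enzyme that activates it (-0.19, adjusted p = 0.0281), fell among 16 tested (list median -0.025). Without control replicate 1 or control replicate 3, 1 of these 3 calls was left.

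Genes of crypt base stem cells and Wnt signalling, which repair-type epithelium in mice is known to express less, had 5 of 17 rising and 1 falling (median 0.15), where 8.20% and 5.43% of all genes did. Cd44 (0.51, adjusted p = 0.000988), Ephb2 (0.42, adjusted p = 0.00202) and the ion cotransporter gene Slc12a2 (0.28, adjusted p = 0.00432) rose and Prom1 (-0.36, adjusted p = 0.00765) fell. Ascl2 (0.26, adjusted p = 0.025) and Axin2 (0.34, adjusted p = 0.0351) were also called higher by limma. The 5 rises stood in the same arrays in which Plet1, Ly6a and Clu were higher. Of the 17 differences 13 were positive and 4 negative. By limma Lgr5 (-0.16, adjusted p = 0.172) and Smoc2 (-0.17, adjusted p = 0.396) were lower but not called. Olfm4 was higher but not called either (0.44, adjusted p = 0.685). The DHX9-837 arrays for Lgr5 (6.82, 6.81 and 7.11) all lay below control (7.16, 7.13 and 7.26), where 14.4% of all genes tested did.

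Markers of other tissues that make these transcripts were read beside them. Stratified squamous epithelium, present at the anal end of the bowel, expresses Sprr1a strongly. Of its 20 markers 12 were under the level filter, including Krt14 (mean 4.72 over the 9 arrays) and Trp63 (5.28), and 8 were tested. Of these Pkp1, a desmosome gene, rose (0.29, adjusted p = 0.0105) and 7 were not called, where 8.20% of all genes rose. The mean level of the 8 was 6.82 to 6.86 in DHX9-1271 arrays and 6.76 to 6.87 in DHX9-837 arrays, against 6.78 to 6.98 in control arrays, so the groups overlapped. Without control replicate 2 or DHX9-1271 replicate 1, 2 of the 8 were called in place of 1. Their part in the Sprr1a levels was not tested.

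Stromal and vascular markers, whose cells express Ly6a, Clu, Ccn1 and Ccn2, had calls in the upward direction. Of 16 fibroblast markers 7 rose (median 0.21), Fbln1 (0.35), Postn (0.36), Dcn (0.38) and Pdgfra (0.22) having the smallest p, and 9 were not called, where 8.20% of all genes rose. The 7 calls fell to 3 without control replicate 1, DHX9-1271 replicate 2 or DHX9-1271 replicate 3, and to 4 without DHX9-1271 replicate 1 or any 1 of the DHX9-837 arrays or with no level filter. Pdgfra lost its call without any 1 of 7 arrays and Dcn without control replicate 1. The mean level of the 16 genes was 8.83 to 8.94 in DHX9-1271 arrays and 8.81 to 8.89 in DHX9-837 arrays, against 8.53 to 8.74 in control arrays. Of 15 endothelium markers 7 rose (median 0.17), led by Emcn (0.35), Eng (0.30), Cdh5 (0.28) and Prox1 (0.27), with means of 7.40 to 7.47 in DHX9-1271 arrays and 7.37 to 7.41 in DHX9-837 arrays, against 7.23 to 7.28 in control arrays. Without control replicate 1 their 7 calls fell to 3, and Prox1 lost its call without control replicate 1 or control replicate 3. The part of stromal and vascular cells in the levels of Ly6a, Clu, Ccn1 and Ccn2 was not tested.

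Of 13 macrophage and granulocyte markers 5 rose and 1 fell (median 0.17), where 8.20% and 5.43% of all genes did. Csf1r (0.48), C1qc (0.50) and C1qb (0.40) rose and Cd14 (-0.43) fell. The list mean was 7.31 to 7.34 in DHX9-1271 arrays and 7.41 to 7.48 in DHX9-837 arrays, against 7.17 to 7.23 in control arrays, the same order as for Il1rn, which myeloid cells and epithelium both make; their part in it was not tested. Smooth muscle markers had Hhip up (0.44, adjusted p = 0.00279) and 13 of 14 not called, where 8.20% of all genes rose. Their means were 9.92 to 10.05 in DHX9-1271 arrays and 9.75 to 9.88 in DHX9-837 arrays, against 9.82 to 9.98 in control arrays. Each hairpin group overlapped control, while DHX9-837 lay wholly below DHX9-1271. In DHX9-837 minus DHX9-1271 their median was -0.17, and 13 of 14 were negative with 1 called lower, Synm (-0.34, adjusted p = 0.049), picked after its values were seen, where 1.21% of all genes were called lower. General epithelium markers were measured at 10.75 to 10.80 in DHX9-1271 arrays and 10.77 to 10.82 in DHX9-837 arrays, against 10.71 to 10.73 in control arrays. Of these 15 genes Krt18 (0.66), Krt19 (0.24) and Tspan8 (0.18) rose and Cldn3 (-0.29) fell (median 0.020), where 8.20% and 5.43% of all genes did. The 4 calls fell to 1 without control replicate 1, and to 2 with no level filter, with the replicate block, or without control replicate 2, control replicate 3, DHX9-1271 replicate 3 or DHX9-837 replicate 3.

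**Figure D4:**
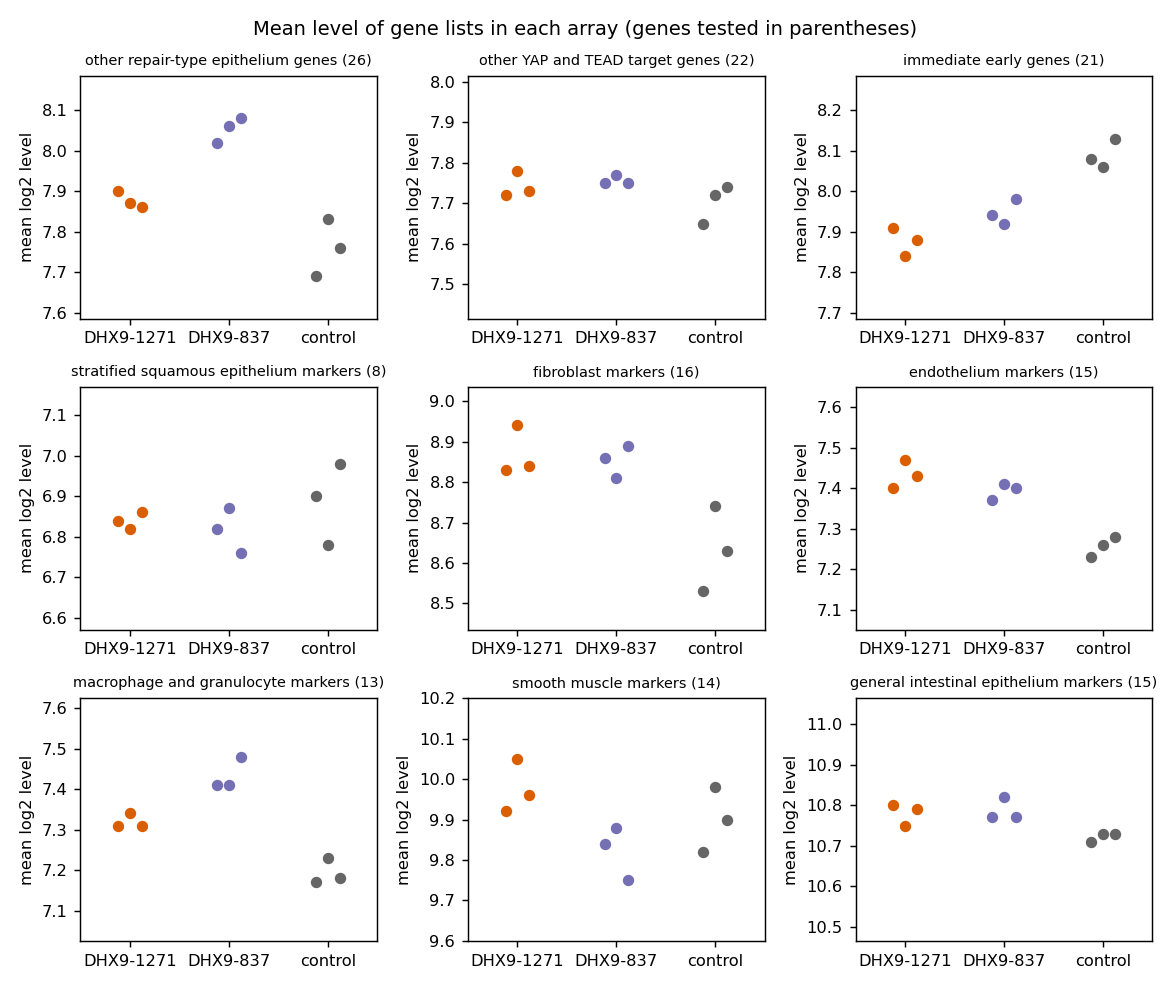
Mean log2 level of 9 gene lists in every array, with 1 point per array of DHX9-1271, DHX9-837 and control and the number of genes tested in parentheses. Every panel spans 0.6 on the log2 scale. The other repair-type epithelium genes separate all 3 groups, immediate early genes are highest in control, squamous epithelium markers overlap between groups, and smooth muscle markers overlap control in both hairpin groups.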

How the data were processed

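The authors deposited log2 expression levels of 9 Affymetrix Mouse Gene 2.0 ST arrays, normalized by RMA; per the submitters' processing notes the tools were oligo 1.30.0 and R 3.1.1. The probe set definition is not given in the sources used here. Groups came from the sample titles. Row numbers equalled the Entrez Gene number in all 24015 rows that the platform's table names. It does not list 958 rows, Ly6a among them, and 559 of these were named through the RefSeq gene table. The brightest row of a symbol was kept, and a mean level of at least the 30th percentile (5.29) was required, which kept 17199 genes.

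Tests used limma 3.58.1 in R 4.3.3: a group-means model over all 9 arrays, with empirical Bayes moderation (6 residual and 2.82 prior degrees of freedom). P-values are two-sided, Benjamini-Hochberg adjusted across the 17199 genes, and called under 0.05. Both hairpins against control averages the means of DHX9-1271 and DHX9-837 and subtracts that of control. The method was tested on simulated data.

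The members and the lists were chosen with earlier results of these data known. From each list up to 4 called genes of smallest p were named, and for each member the 3 genes of highest r, leaving out predicted genes, clones and receptor segments. Other genes printed were picked after their values were seen. A few named genes are not reported here. Ly6d and Il33 each stand in 2 of the lists. The sample titles state no pairing of arrays by replicate number. Same-numbered arrays deviated from their group means with correlations from -0.377 to 0.268, and differently numbered arrays with correlations from -0.453 to 0.399. With 3 arrays in each group this shows no sign of pairing but cannot exclude it. Alternatives were the level filter, rows per gene, centring, cyclic loess, trend, robust moderation, array weights, the replicate block, the arrays compared alone and each array left out. Naming by the platform's table alone was added after the data were seen. The number of arrays limits the precision. Figures were drawn with matplotlib 3.10.9.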

Additional observations from a re-analysis of the deposited data

Results flagged for a closer look

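The hairpins, set against the same control, differed in 4 of 48 named genes by the limma test of DHX9-837 against DHX9-1271. That test called 1.91% of all genes. The 48 were named by small p for both hairpins against control in the same fit. Their share is therefore not comparable with that of all genes. Plaur was higher in DHX9-837 by 0.64 (adjusted p = 0.00744), Krt18 by 0.34 (adjusted p = 0.0306) and Itga2 by 0.31 (adjusted p = 0.0151), each in 3 of 3 arrays against every DHX9-1271 array. Klf4 had a difference of -0.32 (adjusted p = 0.0404), with all DHX9-837 arrays below. With single arrays left out, the call was lost in 0 of 9 fits for Plaur, 4 for Itga2, 6 for Krt18 and 7 for Klf4. In the 11 other alternatives it was lost in 0 for Plaur and Itga2, 2 for Krt18 and 3 for Klf4. Dhx9 itself differed by -0.021 (SE 0.051).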

How the results depend on the processing

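The differences of the 9 genes from control kept their sign in all alternatives that held the gene. Ly6a was absent when rows were named by the platform's table alone, and Ankrd1 with the filter at the median gene. Between hairpins, where the differences were near 0, Clu (-0.0178) changed sign with cyclic loess (0.00280), array weights (0.0108), without DHX9-1271 replicate 2 (0.144) and without DHX9-837 replicate 2 (0.0292), with a range of -0.138 to 0.144 over the arrays left out, and Ccn2 (0.0349) without DHX9-837 replicate 3 (-0.0321, range to 0.109). The called YAP targets numbered 5, and 4 to 7 over all alternatives, and the called repair-type epithelium genes 9, and 7 to 12. Of 48 named genes, 14 lost their call for both hairpins against control in at least 1 alternative, 6 of them with all arrays kept.

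Counts over all genes moved more. For DHX9-1271 against control 768 genes were called, or 420 with no level filter, 418 with the replicate block and 345 with the arrays compared alone, and 148 to 730 with an array left out, the lowest without DHX9-1271 replicate 3. For DHX9-837 the count of 2721 became 1738 with the arrays compared alone and 1917 to 2630 with an array left out. For both hairpins 2344 became 1422 (without control replicate 1) to 2156. Between hairpins 328 became 146 with no level filter, 508 with the filter at the median gene, 556 with trend, 752 with array weights and 174 with the replicate block, and 32 to 376 with an array left out. The cause of these shifts was not tested. No pairing by replicate number is stated or was seen, so the fit with the replicate block is given only as an alternative.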
